A study of Rattus norvegicus with 6 samples.

Results

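The genes described here are Mki67, Top2a, Cdk1 and Pcna, whose transcripts accompany cell division, and Cdkn1a, which encodes a brake on it. They were taken by Ensembl identifier, as ENSRNOG00000028137 (Mki67), ENSRNOG00000053047 (Top2a), ENSRNOG00000000632 (Cdk1), ENSRNOG00000021264 (Pcna) and ENSRNOG00000000521 (Cdkn1a). These are 5 of the 32623 genes counted in the series, and all 5 were among the 14481 with enough counts to be tested. The symbols came with the choice of the identifiers, because the deposited counts carry identifiers alone. Polyadenylated RNA was sequenced from the full-thickness esophagus of 6 male wild-type Sprague-Dawley rats, an outbred strain, each 8 to 10 weeks old by the description of the animals. The 3 control rats were untreated, and the 3 injured rats had a local lesion made by rubbing the esophagus with a 3D-printed device passed through the mouth, for 8 to 10 strokes. Tissue of both groups was collected on day 28, and each library came from 1 separate animal. The series is about a model of esophageal stricture, a narrowing by scar tissue.

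In the esophagus, dividing cells lie mostly in the basal layer of the squamous epithelium, from which the layers above are renewed. Cyclin-dependent kinases drive a cell through DNA synthesis and mitosis, and p21, the protein of Cdkn1a, binds and inhibits them, often downstream of p53. Mki67, Top2a and Cdk1 are transcribed mainly late in the cycle, whereas Pcna serves DNA synthesis and also DNA repair. Full-thickness tissue mixes epithelium, connective tissue, muscle, vessels and blood cells, so more dividing cells and more transcript per cell cannot be told apart for any gene described here. Marker genes of these cell types were not analysed here, since no identifier could be paired with a symbol beyond the 5 genes.

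The control libraries held 14181903 to 18263608 counts and the injured libraries 15949379 to 18376578. Levels are given as CPM, the count as a rate per library size after TMM scaling, which uses a trimmed mean of the log ratios between libraries. In the whole comparison, 103 genes were called higher and 93 lower in injured animals at an adjusted p under 0.05 (edgeR quasi-likelihood test with Benjamini-Hochberg adjustment), or 1.35% of the genes tested. With the replicate number as a block these were 287 and 259, or 3.77% of the genes tested, and 0 of the 5 genes were among them. With library size as the only scaling they were 129 and 67, so that 65.8% of the calls were higher, against 52.6% with TMM.

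The upstream sequences of the late-cycle genes are shown because Mki67 and Top2a varied together among the animals, with Cdk1 nearer to them than to Cdkn1a, as the correlations described further on show. Promoters of such genes often carry a CHR element, with the letters TTTGAA, near several CCAAT boxes, the sites of the factor NF-Y. RefSeq promoters of the GRCr8 assembly, each 250 bases before to 50 bases after a gene's start, were matched by symbol for all 5 genes, and both strands were searched. In the lines that follow, capitals mark TTTGAA and CCAAT or their reverse complements, and each sequence runs 5′ to 3′ on the strand of its gene. The last line is Pcna, which is not counted as a late-cycle gene here, and Cdkn1a is not printed. The stretches end before the outermost RefSeq start of the gene, except for Mki67, whose outermost start lies 254 bases upstream of the start used, so that 30 bases are shown. They are chr1:199952681-199952710 on the minus strand for Mki67, chr10:84473094-84473343 on the minus strand for Top2a, chr20:19265043-19265251 on the plus strand for Cdk1 and chr3:139955821-139956070 on the minus strand for Pcna.
Mki67: TTTGAAccgccgttttcgTTTGAATTGGgc
Top2a: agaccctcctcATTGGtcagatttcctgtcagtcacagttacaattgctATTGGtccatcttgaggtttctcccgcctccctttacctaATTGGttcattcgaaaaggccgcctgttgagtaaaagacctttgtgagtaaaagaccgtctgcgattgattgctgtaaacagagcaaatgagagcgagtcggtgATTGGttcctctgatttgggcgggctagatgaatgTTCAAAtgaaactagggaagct
Cdk1: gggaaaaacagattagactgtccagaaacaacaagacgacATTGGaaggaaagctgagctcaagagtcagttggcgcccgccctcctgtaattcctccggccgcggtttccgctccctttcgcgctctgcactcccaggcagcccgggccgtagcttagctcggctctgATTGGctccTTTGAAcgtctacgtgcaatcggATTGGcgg
Pcna: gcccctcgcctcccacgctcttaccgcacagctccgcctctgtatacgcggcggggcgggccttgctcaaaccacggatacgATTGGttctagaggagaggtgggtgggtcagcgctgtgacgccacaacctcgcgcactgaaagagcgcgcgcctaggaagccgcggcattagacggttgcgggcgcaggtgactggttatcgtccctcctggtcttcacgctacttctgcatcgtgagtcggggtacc

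Over the full 300 bases, Mki67 held 2 copies of TTTGAA and 4 of CCAAT, Top2a held 1 and 4, and Cdk1 held 2 and 3. Pcna held 0 and 1, and Cdkn1a held 0 of both. The second TTTGAA of Mki67 shares its last base with a reversed CCAAT. At least 1 TTTGAA was present in 18.3% of all 33469 promoters of the table and at least 3 CCAAT in 3.02%, while 0.651% held both. A half-site of p53, searched by its published degenerate letters, was found at 1 position in the Cdkn1a window and in 7.98% of all promoters. Its pattern is its own reverse complement, so any match reads on both strands. Sequence beyond the 300 bases was not searched. These are matches of letters, and no binding was measured in this series.

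None of the 5 genes was called (0 of 5, against 1.35% of all tested genes). At an unadjusted p under 0.05, 1 of the 5 passed, Pcna, against 21.4% of all tested genes. DESeq2 called 1 of the 5, again Pcna, against 8.68% of the genes it tested, and limma-voom called 0 of 5, against 0.856%. Fitted levels were higher in injured animals for all 5 genes, by 1.08-fold to 1.31-fold, but the 95% interval of the fold change reached below 1 for 4 of them. The median log2 fold change of all tested genes was -0.011. Mki67 and Top2a varied together among the animals, so the 5 directions are not separate observations. Cdk1 correlated positively with both, but neither correlation passed after adjustment. Only Pcna had groups that did not overlap, which was the case for 29.2% of all tested genes, and for 13.5% with the injured animals higher.

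**Figure D1:**
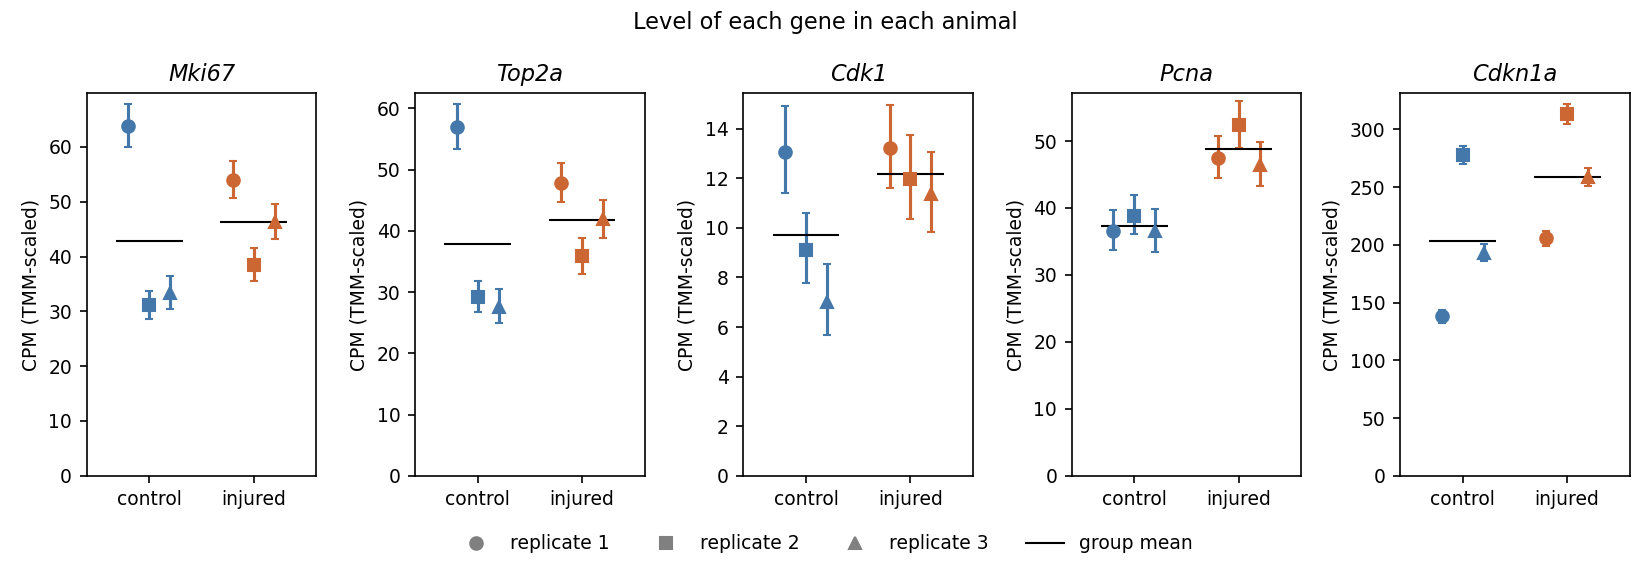
Level of each gene in each animal, as TMM-scaled CPM on a linear axis from 0, with control animals in blue and injured animals in orange. Bars are exact Poisson 95% intervals, which cover counting error only, and horizontal lines are group means. Pcna is the 1 gene whose groups do not overlap, and control replicate 1 has the highest Mki67 and Top2a and the lowest Cdkn1a.

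Mki67 encodes Ki-67, a protein that coats mitotic chromosomes and is present in cycling cells but not in resting ones. Control replicates 1, 2 and 3 had 63.8, 31.1 and 33.3 CPM, from 1064, 557 and 462 counts. Injured replicates 1, 2 and 3 had 54.0, 38.5 and 46.3 CPM, from 1014, 634 and 791 counts. Control replicate 1 was the highest of all 6 libraries, and the other controls were the lowest, so the injured animals lay inside the range of the controls. The control mean was 42.8 ± 18.3 CPM and the injured mean 46.3 ± 7.76 CPM (SD, n = 3 each). The log2 fold change, 0.11 ± 0.29 (standard error), did not pass the test (edgeR, adjusted p = 0.858), and it corresponds to a 1.08-fold difference with a 95% interval of 0.665 to 1.76. The direction was not stable, since the log2 fold change was -0.065 without control replicate 2, -0.025 without control replicate 3 and -0.013 without injured replicate 1.

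Top2a encodes topoisomerase II alpha, which untangles DNA during replication and chromosome segregation. The controls had 56.9, 29.2 and 27.6 CPM of it, and the injured rats had 47.8, 35.8 and 41.9 CPM (replicates 1, 2 and 3 in this order). The picture was that of Mki67, with control replicate 1 above every injured animal and the remaining controls below every one. Mean levels were 37.9 ± 16.5 CPM and 41.8 ± 5.98 CPM (SD, n = 3 each), giving a log2 fold change of 0.14 ± 0.29 (standard error; edgeR, adjusted p = 0.820). The 95% interval of the fold ran from 0.680 to 1.79. Here too the sign turned when 1 control was left out, to -0.010 without replicate 2 and -0.030 without replicate 3.

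Cdk1 encodes the kinase that starts mitosis together with its B-type cyclins. It was the least counted of the 5 genes, with 97 to 248 counts per library. The controls had 13.1, 9.10 and 6.997 CPM, and the injured rats had 13.2, 12.0 and 11.4 CPM, again in the order of the replicate numbers. The injured animals were close together, and the groups overlapped only through control replicate 1, which lay just under the highest injured library. The means were 9.73 ± 3.09 CPM and 12.2 ± 0.945 CPM (SD, n = 3 each), a 1.25-fold difference with a 95% interval of 0.836 to 1.87 (edgeR, adjusted p = 0.481). Without control replicate 3 the log2 fold change went from 0.32 to 0.15.

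Control replicate 1 moved the comparison of all 3 late-cycle genes. Without it the log2 fold changes were 0.53 for Mki67, 0.56 for Top2a and 0.60 for Cdk1, and the unadjusted p-values were 0.0220, 0.0114 and 0.0218 (edgeR). Of the 14802 genes tested in that fit, 3747 had an unadjusted p under 0.05. Control replicate 1 was singled out after its values were seen, so these smaller p-values are no support for a difference. The adjusted p-values of that fit were 0.140, 0.107 and 0.140, so none of the 3 passed there either, while 2.26% of all tested genes did. The exact Poisson interval of Mki67, which covers counting error only, ran from 60.1 to 67.8 CPM in this library, and those of control replicates 2 and 3 reached no higher than 36.5 CPM.

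**Figure D2:**
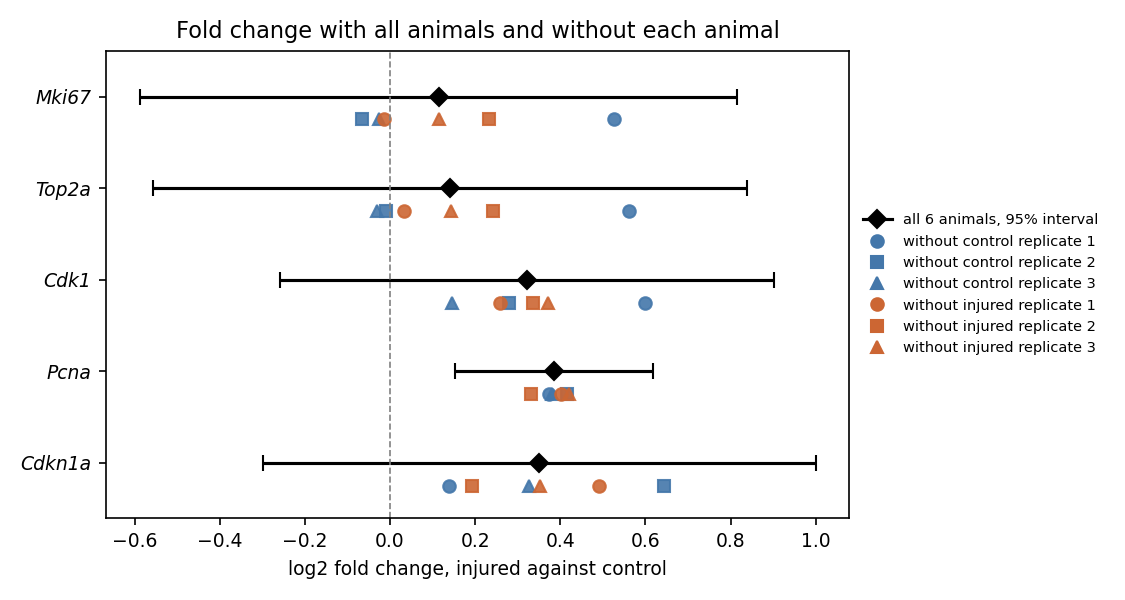
Log2 fold change of each gene, injured against control, with all 6 animals (black diamonds, 95% interval) and with each animal left out in turn (coloured symbols). Leaving out control replicate 1 moves Mki67, Top2a and Cdk1 up to 0.53, 0.56 and 0.60 and Cdkn1a down to 0.14, while Pcna stays between 0.33 and 0.42.

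Pcna encodes the ring-shaped clamp that holds DNA polymerase on its template. Control replicates 1, 2 and 3 had 36.6, 38.9 and 36.6 CPM, from 610, 696 and 507 counts. Injured replicates 1, 2 and 3 had 47.5, 52.4 and 46.4 CPM, from 892, 862 and 793 counts. The lowest injured animal was thus above the highest control, and both groups were tight. The means were 37.3 ± 1.32 CPM and 48.8 ± 3.15 CPM (SD, n = 3 each). The log2 fold change was 0.38 ± 0.10 (standard error), or 1.31-fold with an unadjusted 95% interval of 1.11 to 1.53. It ranked 875 of the 14481 genes by p and missed the threshold after adjustment (edgeR, unadjusted p = 0.00602, adjusted p = 0.0995). DESeq2 put it past the threshold (adjusted p = 0.0396), the other 14 alternatives did not, and their adjusted p-values ran from 0.0776 to 0.280. An exact two-sided permutation test over the 6 libraries gave p = 0.1, the smallest that 3 animals against 3 allow. The size of the difference depended little on any single animal, with log2 fold changes of 0.33 to 0.42 when 1 was left out.

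Cdkn1a encodes p21, which inhibits cyclin-dependent kinases and also binds the Pcna clamp. Control replicates 1, 2 and 3 had 2300, 4977 and 2680 counts, or 138, 278 and 193 CPM. Injured replicates 1, 2 and 3 had 3858, 5153 and 4413 counts, or 206, 313 and 258 CPM. Control replicate 1 was the lowest library and control replicate 2 the second highest, above both injured replicates 1 and 3. The control mean was 203 ± 70.5 CPM and the injured mean 259 ± 53.7 CPM (SD, n = 3 each). This gave a log2 fold change of 0.35 ± 0.27 (standard error; edgeR, adjusted p = 0.495), or 1.27-fold with a 95% interval of 0.813 to 2.00. Left-out animals moved it between 0.14 without control replicate 1 and 0.64 without control replicate 2, and it passed the threshold in none of these fits.

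The same-numbered animals of the groups are different rats, but for Cdkn1a their order was alike. In both groups replicate 2 was highest, replicate 3 intermediate and replicate 1 lowest, and the injured animal was above its same-numbered control by 0.57, 0.17 and 0.42 on the log2 scale for numbers 1 to 3. With the number as a block the Cdkn1a log2 fold change was 0.39 and its standard error fell to 0.11 from 0.27 (edgeR, unadjusted p = 0.0134, adjusted p = 0.101). Of the 14481 genes tested in that fit, 3864 had an unadjusted p under 0.05. The likeness in order was noticed in the values themselves, so the smaller standard error and p-value are no support for a difference. For Pcna the 3 differences between same-numbered animals were 0.38, 0.43 and 0.34. For Mki67 they were -0.24, 0.31 and 0.47, with number 1 going against the others, and for Top2a -0.25, 0.29 and 0.60. For Cdk1 they were all above 0, at 0.014, 0.39 and 0.69. Within both groups Mki67 was highest in replicate 1 and lowest in replicate 2, the reverse of Cdkn1a, although the Poisson intervals of control replicates 2 and 3 overlapped. No label says what a number stands for.

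**Figure D3:**
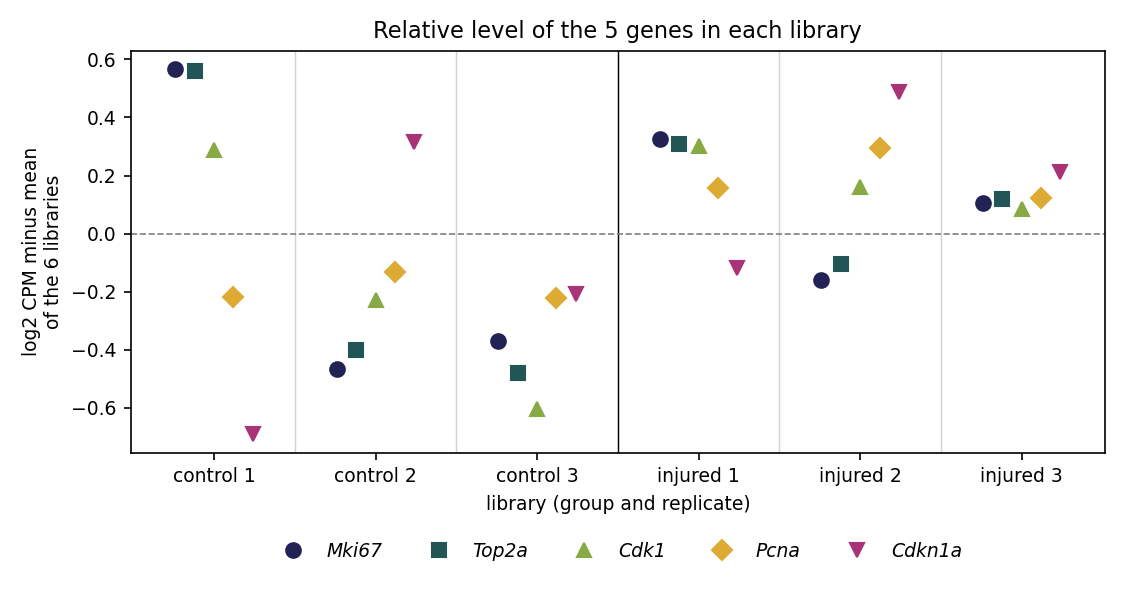
Log2 CPM of each gene minus its own mean over the 6 libraries, by library, with the controls left of the black line and the injured animals right of it. Mki67 and Top2a lie next to each other in every library, and Cdkn1a is the lowest of the 5 genes in both replicates 1 and the highest in both replicates 2.

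Mki67 and Top2a kept a nearly fixed ratio while their levels spanned 2.05-fold and 2.06-fold among the controls. A ratio of counts within a library needs no scaling, although its size also reflects the lengths of the transcripts, so only its change between libraries is informative. For each Mki67 count there were 0.891, 0.939 and 0.829 Top2a counts in the controls and 0.885, 0.931 and 0.904 in the injured rats, by replicate number. The highest of these was 1.13 times the lowest. Cdk1 for each Mki67 count spanned 1.52-fold over the 6 libraries, Pcna 2.37-fold and Cdkn1a 4.13-fold.

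Cdkn1a against Mki67 was the widest of the 10 ratios. By replicate number, it was 2.16, 8.94 and 5.80 in the controls, against 3.81, 8.13 and 5.58 in the injured rats. Its group means, 5.63 ± 3.39 and 5.84 ± 2.17 (SD, n = 3 each), differed by much less than the spread between animals. The tests of ratios used their log2 values (exact two-sided permutation test, p = 0.9 for this ratio, 1 after Benjamini-Hochberg adjustment over 10 ratios). No ratio between any pair of the 5 genes had groups that did not overlap, and the smallest exact permutation p was 0.4. Between same-numbered animals, Cdk1 for each Mki67 count was higher in the injured animal of all 3 pairs, at 0.245 against 0.205, 0.311 against 0.293 and 0.245 against 0.210. Cdk1 for each Top2a count was also higher in all 3, at 0.2765 against 0.230, 0.334 against 0.312 and 0.271 against 0.253. These were 2 of the 10 ratios and were picked out after their values were seen. With 3 pairs the smallest two-sided exact permutation p is 0.25, which both had.

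**Figure D4:**
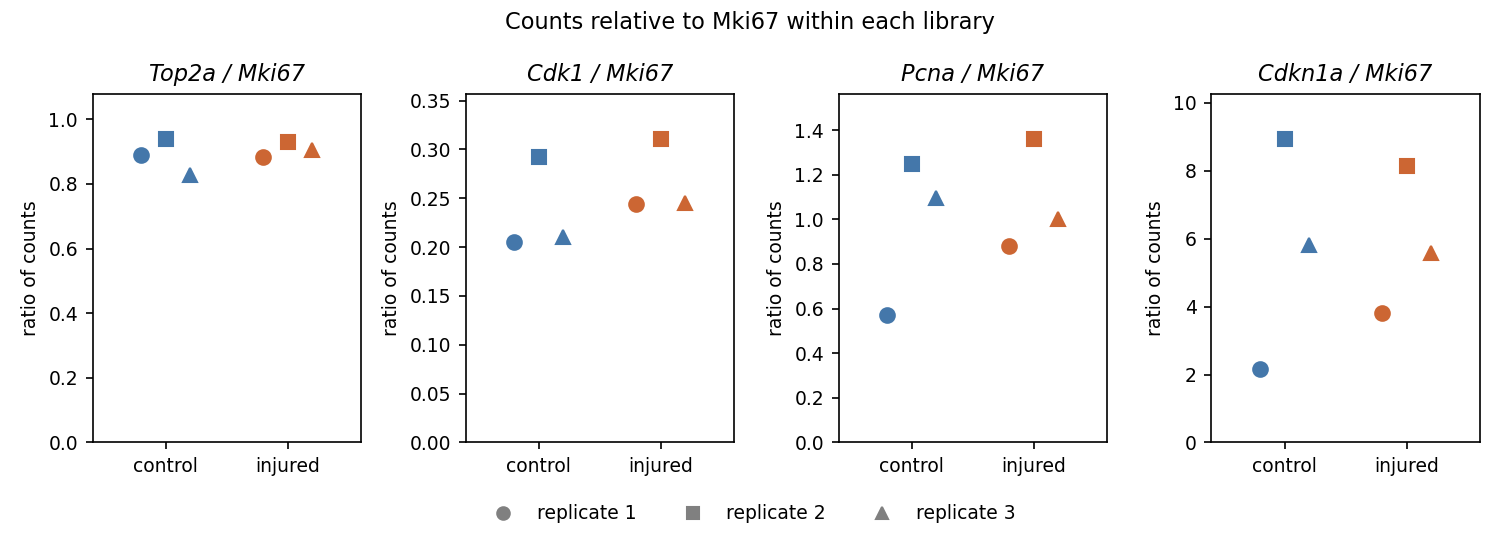
Counts of Top2a, Cdk1, Pcna and Cdkn1a divided by the Mki67 count of the same library, on linear axes from 0, for control (blue) and injured (orange) animals. The Top2a ratio stays between 0.829 and 0.939, while the Cdkn1a ratio runs from 2.16 to 8.94, lowest in both replicates 1 and highest in both replicates 2.

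Correlations of log2 CPM over the 6 animals were computed for the 10 pairs of genes, with exact permutation p-values adjusted over the 10 pairs by the Benjamini-Hochberg method. The libraries share 1 experiment, and their groups are pooled in these values. The permutations treat the 6 libraries as exchangeable, and a link between same-numbered animals would make these p-values too small. Mki67 and Top2a had a Pearson r of 0.987 (exact permutation p = 0.00278, adjusted 0.0278) and a Spearman rho of 0.943 (exact permutation p = 0.0167, adjusted 0.166). Their r was 0.982 without control replicates 1 and 2, the libraries farthest from the median of Mki67. Top2a and Cdk1 had an r of 0.877 (exact permutation p = 0.0139, adjusted 0.0695) and a rho of 0.886 (exact permutation p = 0.0333, adjusted 0.166), and r was 0.898 without control replicates 1 and 3. Mki67 and Cdk1 had an r of 0.804 (exact permutation p = 0.0486, adjusted 0.162) and a rho of 0.829 (exact permutation p = 0.0583, adjusted 0.194), and r was 0.824 without control replicates 1 and 2. Of the genes described here, these 3 are the ones whose promoters above hold both TTTGAA and CCAAT. Whether these letters bear on the correlations was not tested.

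Cdkn1a and Mki67 had an r of -0.644 (exact permutation p = 0.169, adjusted 0.338) and a rho of -0.543 (exact permutation p = 0.297, adjusted 0.495). Without control replicates 1 and 2 the r was -0.032, so over the 6 animals this value rests on those 2. Cdkn1a and Top2a had an r of -0.549 (exact permutation p = 0.257, adjusted 0.407) and a rho of -0.371 (exact permutation p = 0.497, adjusted 0.710), and r was -0.737 without control replicates 1 and 3. Cdkn1a and Cdk1 had an r of -0.114 (exact permutation p = 0.806, adjusted 0.875) and a rho of -0.143 (exact permutation p = 0.803, adjusted 0.803), and r was -0.730 without control replicates 2 and 3. All 3 values were negative, none passed the test, and each moved widely with the libraries included. Pcna was left out of these readings, because its groups lie apart and a group of 3 is too small for a correlation of its own.

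The 5 genes differed in how much animals of 1 group varied. Among the controls the SD of log2 CPM was 0.57 for Mki67, 0.58 for Top2a, 0.45 for Cdk1 and 0.50 for Cdkn1a, against 0.05 for Pcna. Of the 500 genes nearest in mean level, the Mki67 value was above 92.4%, that of Top2a above 93.2%, that of Cdkn1a above 87.6% and that of Cdk1 above 77.0%. Pcna was above 5.6%. Its control levels lay inside one another's exact Poisson intervals, so counting error alone could give a spread of this size. The controls are too few to call Pcna a steady gene. Among injured animals the SDs were smaller for Mki67 (0.24), Top2a (0.21), Cdk1 (0.11) and Cdkn1a (0.30), and larger for Pcna (0.09). In that group Mki67 was above 84.2% of the 500 nearest genes, Top2a above 77.6%, Cdkn1a above 90.2%, Pcna above 31.2% and Cdk1 above 20.0%. The median over all tested genes was 0.25 in controls and 0.19 in injured animals, and the difference in spread was not tested.

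**Figure D5:**
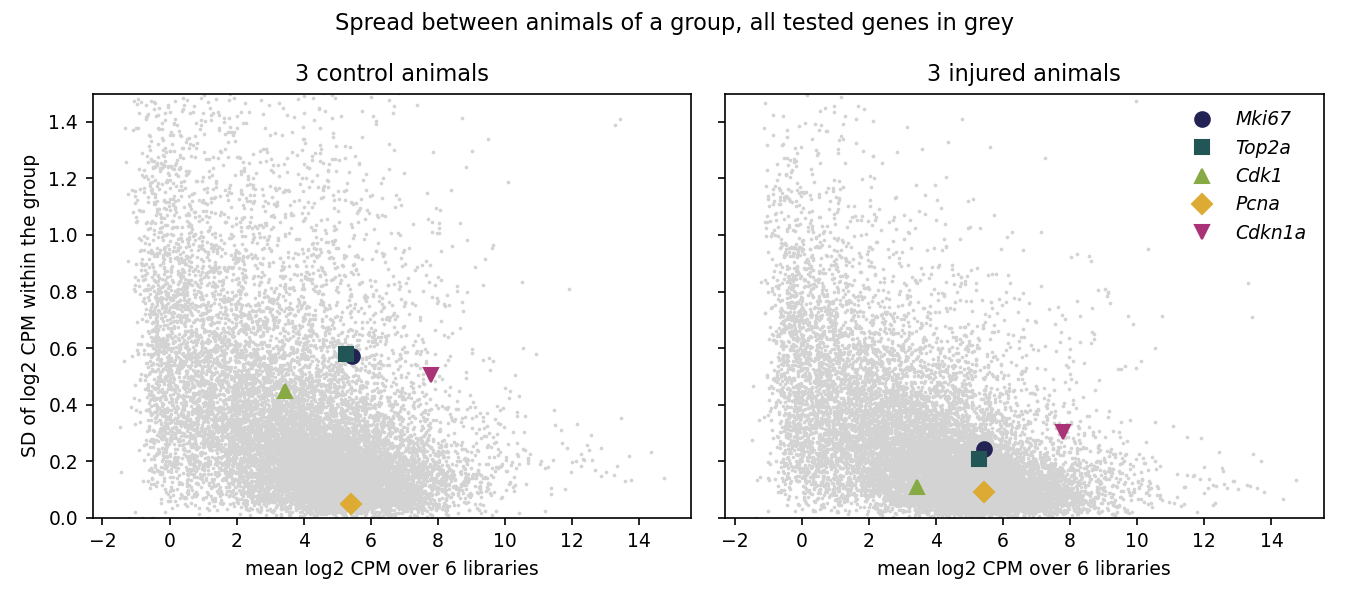
SD of log2 CPM among the 3 controls (left) and the 3 injured animals (right) against the mean log2 CPM over all 6 libraries, with every tested gene as a grey dot. Mki67, Top2a and Cdkn1a lie high among genes of their level in the controls, Pcna lies near the bottom, and 411 genes on the left and 75 on the right have an SD above the axis limit of 1.5.

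The genes most like these in their pattern over the 6 libraries were sought among the 13654 other tested genes that averaged 1 CPM or more. The profile of the late-cycle genes was the mean of the standardized log2 CPM of Mki67, Top2a and Cdk1. It was highest in control replicate 1 (1.20) and injured replicate 1 (0.81) and lowest in control replicate 3 (-1.27). The nearest genes were ENSRNOG00000004332 (Pearson r = 0.989) and ENSRNOG00000004487 (r = 0.988), and 45 genes had an r above 0.95. Neither of the nearest was called, with log2 fold changes of 0.28 and 0.09 (edgeR, adjusted p = 0.640 and 0.955). The genes nearest to Cdkn1a were ENSRNOG00000003256 (r = 0.994) and ENSRNOG00000002736 (r = 0.992), with 90 genes above 0.95. These values over 6 libraries are given as a description, with no test.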

How the data were processed

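The authors deposited whole-number counts per Ensembl gene, 1 column per animal and not normalized. Per the submitters' processing notes, the build was Rnor_6.0 and the tools were HISAT2 2.2.1, HTSeq 0.6.1, DESeq2 1.50.2, fastp 0.24.1 and bcl2fastq 2.20.0.422. The annotation release, strand setting and rule for multiply mapped reads were not given in the sources used here. Counts of reads from overlapping genes or near-identical copies may therefore be split or merged. Of 32623 genes, 12126 had 0 counts in every library.

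From these counts, filterByExpr of edgeR 4.0.16 in R 4.3.3 (minimum count 10, minimum total 15) kept 14481 genes. Libraries were TMM-scaled and compared by the quasi-likelihood F test with no term other than group. P-values were Benjamini-Hochberg adjusted over all tested genes and called under 0.05. Standard errors are the absolute log2 fold change over the square root of F, and 95% intervals use the t distribution of the test. Log2 CPM had a prior count of 2. Between libraries of a group the lowest chi-square per degree of freedom was 16, so within a group none was another library sequenced again. Libraries of different groups were not compared in this way. DESeq2 1.42.0 and limma-voom 3.58.1 were among the alternatives.

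The genes, lists and tests were chosen with earlier results of these data known. The rule for named genes took the 5 genes, called or abundant members of 5 cell cycle lists, and the genes most correlated with them. The RefSeq table had 47357 genes and 0 Ensembl identifiers, so the cell cycle and cell type lists could not be matched and were not analysed here, and no more than 2 identifiers are printed for each profile. Sequences are from RefSeq (GRCr8), a different build from the counts.

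Control and injured libraries share replicate numbers 1 to 3. The correlation across genes of same-numbered deviations from the group means was 0.366, 0.365 and 0.104, each above the limit of 0.1 for pairing, the last barely. Differently numbered libraries were not compared in this way, so these values have no baseline and cannot decide whether the numbers mark pairs. The block used the replicate numbers of the labels, and the reading of those numbers as pairs comes from the data alone.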

Additional observations from a re-analysis of the deposited data

How the results depend on the processing

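No member was called except Pcna with DESeq2 (log2 fold change 0.395, adjusted p = 0.0396), and it was not called by DESeq2 with the replicate block (adjusted p = 0.116), an alternative chosen after seeing the data. Leaving out 1 library gave log2 fold changes of -0.065 to 0.527 for Mki67, -0.030 to 0.562 for Top2a, 0.146 to 0.599 for Cdk1, 0.332 to 0.420 for Pcna and 0.138 to 0.643 for Cdkn1a. Mki67 turned negative without control replicate 2 (-0.065), control replicate 3 (-0.025) or injured replicate 1 (-0.013), and Top2a without control replicate 2 (-0.010) or 3 (-0.030). Under the other scalings, filters and tests every gene of the 5 kept its direction. With the replicate block the values were 0.178 for Mki67, 0.210 for Top2a, 0.362 for Cdk1, 0.384 for Pcna and 0.388 for Cdkn1a, and the block changed no call among them.

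The number of genes called, 103 higher and 93 lower, went to 756 and 641 with DESeq2, to 287 and 259 with the replicate block and to 953 and 628 with DESeq2 and the block. Limma-voom called 55 higher and 69 lower, so that 44.4% of its calls were higher, against 52.6%. Leaving out 1 library gave 2 to 134 higher and 0 to 200 lower, the fewest when injured replicate 3 was the one left out (edgeR, 1945 genes with an unadjusted p under 0.05). The counts were 46 and 9, 9 and 1, and 2 and 0 for injured replicates 1, 2 and 3, and 134 and 200, 34 and 34, and 9 and 3 for control replicates 1, 2 and 3. The cause of these shifts was not tested. With 3 animals a group, the intervals of Mki67, Top2a, Cdk1 and Cdkn1a still hold differences of up to 1.76-fold, 1.79-fold, 1.87-fold and 2.00-fold, so these genes are not shown to be unchanged. The alternatives for the cell cycle lists were not run.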
